A study of Mus musculus with 6 samples.

Results

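Collagens and secreted matrix glycoproteins were examined as 10 genes (Col4a1, Col4a2, Col5a1, Col3a1, Col1a1, Col1a2, Fn1, Thbs1, Sparc and Olfm1) of the 45193 in the count table, taken by gene symbol. RNA was sequenced from bone marrow-derived macrophages of mice, with 3 wild-type (WT) and 3 knockout (RXRKO) libraries. WT cells came from C57BL/6J mice. The genotype of the knockout is RXRafl/flLysMCre RXRb-/-, on the same labelled background: loxP-flanked Rxra alleles cut by Cre from the lysozyme M (Lyz2) locus, which is active in myeloid cells, and a deleted Rxrb. Rxra and Rxrb encode retinoid X receptors, DNA-binding proteins that act as partners of many other members of the nuclear receptor family. Both groups were grown for 6 days in 20% serum and 30% medium conditioned by L929 cells, a mouse fibroblast line that secretes the growth factor CSF-1, moved to serum-free medium on the evening of day 5, and given the solvent DMSO for 3 hours. Age and sex are not given in the labels used here. No WT library carries Cre or an altered Lyz2 per the labels, so RXR loss, Cre and Lyz2 loss cannot be told apart. The labels call the replicates biological without naming animals, so the tests rest on the spread among these 6 libraries, which may in part be technical.

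Collagens are secreted proteins whose chains wind into a triple helix, with glycine at the first place of each Gly-X-Y unit. Type I, III and V chains form fibrils and come mostly from fibroblasts and other stromal cells. Type IV chains form the sheet of basement membranes under endothelium and epithelium. Fibronectin, thrombospondin 1, SPARC and olfactomedin 1 are secreted glycoproteins that bind matrix or cell surfaces, and macrophages are known to make fibronectin and thrombospondin 1. Cells read these proteins through integrins, CD36, CD44, syndecans and other receptors.

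The repeat is visible in the coding sequence, and it separates the collagen chains into fibrillar and network types. In the GENCODE M21 transcripts of GRCm38, the longest unbroken run of GGN codons (glycine), each followed by any 2 codons, held 338 units in Col1a1, 339 in Col1a2, 344 in Col3a1 and 338 in Col5a1. It held 40 units in Col4a1 and 66 in Col4a2, whose repeats are split into 23 and 24 runs of 3 or more units. Fn1, Thbs1, Sparc and Olfm1 had no run of 3 units. The first 60 bases of the longest run of each chain follow, 5′ to 3′ on the coding strand, with the GGN codons in capitals.
Col1a1, codons 168 to 187: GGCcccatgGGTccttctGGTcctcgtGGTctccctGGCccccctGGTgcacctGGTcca
Col1a2, codons 97 to 116: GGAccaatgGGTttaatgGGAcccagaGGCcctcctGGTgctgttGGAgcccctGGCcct
Col3a1, codons 164 to 183: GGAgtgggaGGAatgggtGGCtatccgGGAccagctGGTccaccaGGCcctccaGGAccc
Col5a1, codons 559 to 578: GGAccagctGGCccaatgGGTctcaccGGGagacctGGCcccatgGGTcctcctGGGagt
Col4a1, codons 43 to 62: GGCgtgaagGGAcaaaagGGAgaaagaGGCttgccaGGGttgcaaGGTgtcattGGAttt
Col4a2, codons 777 to 796: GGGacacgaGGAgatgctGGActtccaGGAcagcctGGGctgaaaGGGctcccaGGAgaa

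Library totals ran from 7880320 to 14957253 counts in WT and from 17250051 to 25091019 in the knockout, a mean ratio of 1.87, so depth and genotype cannot be told apart by design. Levels are therefore given as CPM, which relate a gene's reads to the TMM-scaled total of its library, where 1 read stands for 0.0653 to 0.13 CPM in WT, against 0.0397 to 0.0582 CPM in the knockout. The targeted Rxrb fell from 66.7 ± 1.86 to 9.27 ± 2.09 CPM (SD, n = 3). Rxra, counted over the whole gene, stood at 104 ± 6.7 and 109 ± 4.83 CPM, which does not check removal of the part between loxP sites. The knockout library of replicate 3 had the largest share of counts in sparse genes. Genes below the count filter took 0.198% of its counts. They took 0.157% in knockout replicate 1, 0.101% in knockout replicate 2 and 0.108% to 0.127% in WT. The first 5 macrophage markers listed (Adgre1, Csf1r, Cd68, Itgam and Fcgr1) summed to between 5880 and 7660 CPM in every library.

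The type IV chains, Col3a1 and Fn1 were lower in knockout macrophages, and Thbs1, Olfm1 and Col5a1 were higher. Of the 10 genes, all 10 passed the low-count filter; 3 rose and 4 fell, while 3 missed the threshold (edgeR quasi-likelihood test, Benjamini-Hochberg adjusted p under 0.05). Over all 12011 tested genes, 19.4% passed in either direction, 9.77% higher and 9.61% lower. The groups did not overlap for 7 of the 10 genes, against 36.9% of all tested genes. The median log2 fold change was -0.75 over the 10 genes and -0.0048 over all tested genes. The genes had been picked with earlier results of these libraries known, so their share of calls is a description. Reads were few: the 10 genes took 11209 reads over the 6 libraries, 8009 of them from Olfm1 and 1570 from Thbs1. Col4a1, Col4a2, Col3a1 and Sparc reached the filter's level (0.621 CPM before scaling) in all WT but not all knockout libraries, and Col5a1 did so in all knockout but not all WT libraries. The other 5 reached it in all 6.

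**Figure D1:**
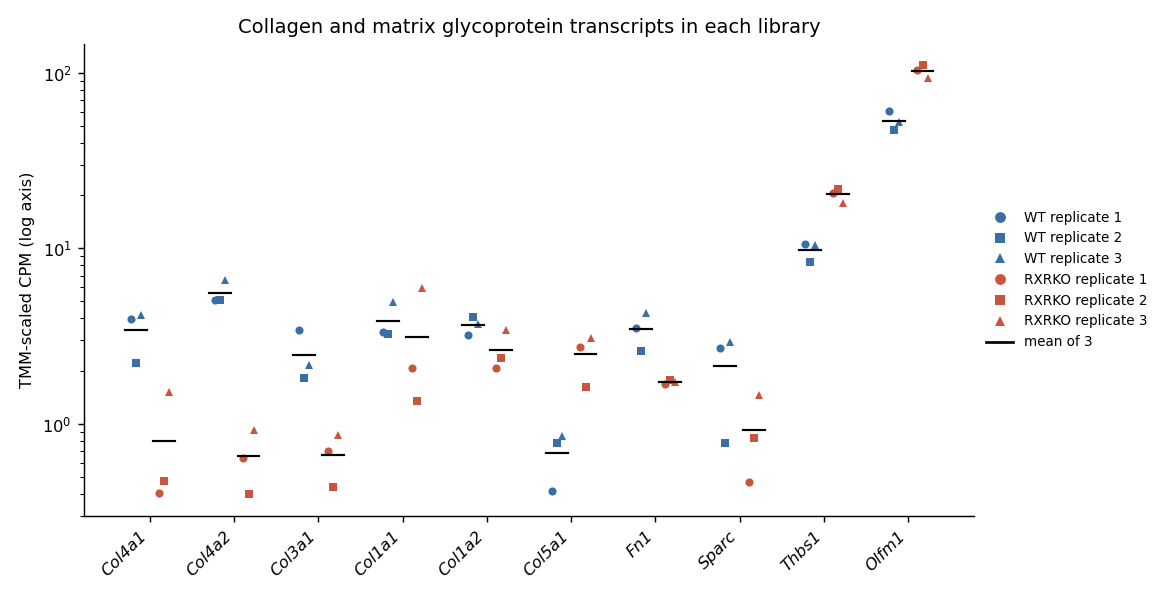
Level of each gene in each library as TMM-scaled CPM on a log axis; colours give the genotype, symbols the replicate number and black bars the mean of 3 libraries. The 3 knockout values of Col4a1, Col4a2, Col3a1 and Fn1 lie below the WT values and those of Col5a1, Thbs1 and Olfm1 lie above, while Col1a1, Col1a2 and Sparc overlap.

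Col4a2 showed the widest difference. It encodes the chain that joins Col4a1 chains in the common type IV collagen molecule. WT libraries held 49, 39 and 101 reads (replicates 1, 2 and 3), or 5.08, 5.09 and 6.6 CPM, and knockout libraries 11, 10 and 17 reads, or 0.64, 0.397 and 0.924 CPM. Each knockout value lay far below each WT value. Col4a2 was thus 8.83-fold lower (log2 fold change -3.14, SE 0.307, edgeR adjusted p = 1.75e-05). Leaving out each library in turn gave -3.48 to -2.84.

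Col4a1 fell with it. Its reads were 38, 17 and 64 in WT and 7, 12 and 28 in the knockout, which is 3.94, 2.22 and 4.18 CPM against 0.407, 0.476 and 1.52 CPM. The groups did not overlap, and knockout replicate 3 was the highest of its group. Its log2 fold change was -2.16 (SE 0.438, edgeR adjusted p = 0.0041), and -2.97 without knockout replicate 3. Per kilobase of exon the ratio of Col4a1 to Col4a2 was 0.688, 0.387 and 0.562 in WT and 0.564, 1.06 and 1.46 in the knockout (two-sided exact permutation p = 0.2, adjusted over 4 ratios 0.267, with 0.1 the smallest that 3 against 3 libraries allow). By this test, an unequal fall of the chains could not be shown.

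These chains are encoded head to head. In GENCODE M21 (GRCm38), Col4a1 (ENSMUSG00000031502) runs on the minus strand of chromosome 8 from 11198423 to 11312826 and Col4a2 (ENSMUSG00000031503) on the plus strand from 11312805 to 11449287. Their first exons overlap by 22 bases. The strand setting of the counting is not given in the sources used here, so reads from these shared bases could be assigned to either gene. Of the 250 bases before the RefSeq starts (GRCm38.p6), 74.4% were G or C for Col4a1 and 73.6% for Col4a2, against a median of 52.4% over 32851 start sites.

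The minor fibrillar chain gene Col5a1, whose type V product sits inside collagen fibrils and limits their width, went the other way. Its reads were 4, 6 and 13 in WT and 47, 41 and 57 in the knockout, or 0.415, 0.783 and 0.849 CPM against 2.73, 1.63 and 3.1 CPM. The lowest knockout library lay farther above the highest WT library than the WT libraries lay from each other. Col5a1 was 3.48-fold higher (log2 fold change 1.80, SE 0.394, edgeR adjusted p = 0.00652). The call held with each library left out, with adjusted p up to 0.048 without WT replicate 1.

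Col3a1 (ENSMUSG00000026043, chromosome 1, 45311538 to 45349706), the chain of type III collagen in soft tissues, was lower. Reads were 33, 14 and 33 in WT and 12, 11 and 16 in the knockout, which is 3.42, 1.83 and 2.16 CPM against 0.698, 0.437 and 0.869 CPM. No knockout library reached the lowest WT library. The log2 fold change was -1.91 (SE 0.378, edgeR adjusted p = 0.00349), and it stayed between -2.15 and -1.62 with each library left out.

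The type I chains did not pass the test. Col1a1 (ENSMUSG00000001506) lies on chromosome 11 from 94936224 to 94953042, and Col1a2 (ENSMUSG00000029661) on chromosome 6 from 4504814 to 4541544. Col1a1, the main chain of bone and tendon collagen, had 32, 25 and 76 reads in WT and 36, 34 and 110 in the knockout, or 3.32, 3.26 and 4.96 CPM against 2.09, 1.35 and 5.98 CPM. The highest value of all was knockout replicate 3 and the lowest were the other knockout libraries, so the groups overlapped. The log2 fold change was -0.36 (SE 0.497, edgeR adjusted p = 0.666). Without knockout replicate 3 it was -1.23 (edgeR adjusted p = 0.0139), and without knockout replicate 2 it was 0.037 (edgeR adjusted p = 0.965). Col1a2, its partner chain, had 31, 31 and 57 reads in WT and 36, 60 and 63 in the knockout, or 3.22, 4.04 and 3.72 CPM against 2.09, 2.38 and 3.42 CPM (log2 fold change -0.47, SE 0.249, edgeR adjusted p = 0.211). Its groups overlapped through knockout replicate 3 as well. Per kilobase of exon, the ratio of Col1a1 to Col1a2 ranged from 1.53 to 2.52 in WT and from 1.07 to 3.31 in the knockout (exact permutation p = 0.9, adjusted 0.9). The length used is the union of annotated exons, 6563 bases for Col1a1 and 12426 for Col1a2. Their coding sequences are closer in length, with 1453 and 1372 codons. The size of such ratios thus depends on the length chosen, but their comparison between genotypes does not. The ratio of Col3a1 to Col1a1 was 0.29 to 0.689 in WT and 0.0973 to 0.223 in the knockout, without overlap (exact p = 0.1, adjusted 0.2). That of Col5a1 to Col1a1 was 0.0966 to 0.186 in WT and 0.401 to 1.01 in the knockout, again without overlap (exact p = 0.1, adjusted 0.2).

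Among the glycoproteins, Fn1 was lower. The gene (ENSMUSG00000026193, chromosome 1, 71585520 to 71653200, minus strand) encodes fibronectin, which links integrins to collagen. Reads were 34, 20 and 66 in WT and 29, 45 and 32 in the knockout, or 3.53, 2.61 and 4.31 CPM against 1.69, 1.79 and 1.74 CPM. The knockout values lay close together below the WT range. Fn1 was 2.05-fold lower (log2 fold change -1.03, SE 0.255, edgeR adjusted p = 0.0129). The call was lost without WT replicate 1 (edgeR adjusted p = 0.0509), WT replicate 3 (0.0737) or knockout replicate 1 (0.0511), with log2 fold changes of -1.04, -0.83 and -1.01. The antisense gene Apol7d shares 292 exon bases with Fn1 and had 0 reads in WT and 10 in the knockout, so a small part of the Fn1 count is uncertain.

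Sparc (ENSMUSG00000018593, chromosome 11, 55394500 to 55423183, minus strand), a collagen-binding glycoprotein that modulates cell adhesion, did not pass. Its reads were 26, 6 and 45 in WT and 8, 21 and 27 in the knockout, or 2.7, 0.783 and 2.94 CPM against 0.465, 0.834 and 1.47 CPM. WT replicate 2 lay among the knockout values. Its log2 fold change was -1.28 (SE 0.466, edgeR adjusted p = 0.073). Without WT replicate 2 (-1.61, adjusted p = 0.0176) or without knockout replicate 3 (-1.74, adjusted p = 0.0247), the edgeR test called it.

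Thbs1 rose on many more reads. It encodes thrombospondin 1, a ligand of CD36 and CD47 that activates TGF-beta and restrains vessel growth. WT libraries held 102, 64 and 160 reads, or 10.6, 8.35 and 10.4 CPM, and knockout libraries 356, 553 and 335 reads, or 20.7, 21.9 and 18.2 CPM. The groups lay well apart. The log2 fold change was 1.04 (SE 0.135, edgeR adjusted p = 0.000176), with 0.95 to 1.11 when a library was left out. Thbs1 (ENSMUSG00000040152) lies on chromosome 2 from 118111876 to 118127133, far from Rxra on that chromosome.

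Olfm1 was the most abundant of the 10 genes. It encodes olfactomedin 1, a secreted glycoprotein best known from neurons, which binds the Nogo receptor. Reads were 580, 362 and 801 in WT and 1785, 2771 and 1710 in the knockout, or 60.2, 47.2 and 52.3 CPM against 104, 110 and 92.9 CPM. The lowest knockout library exceeded the highest WT library by more than the WT libraries differed. Olfm1 was 1.92-fold higher (log2 fold change 0.94, SE 0.105, edgeR adjusted p = 5.05e-05).

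**Figure D2:**
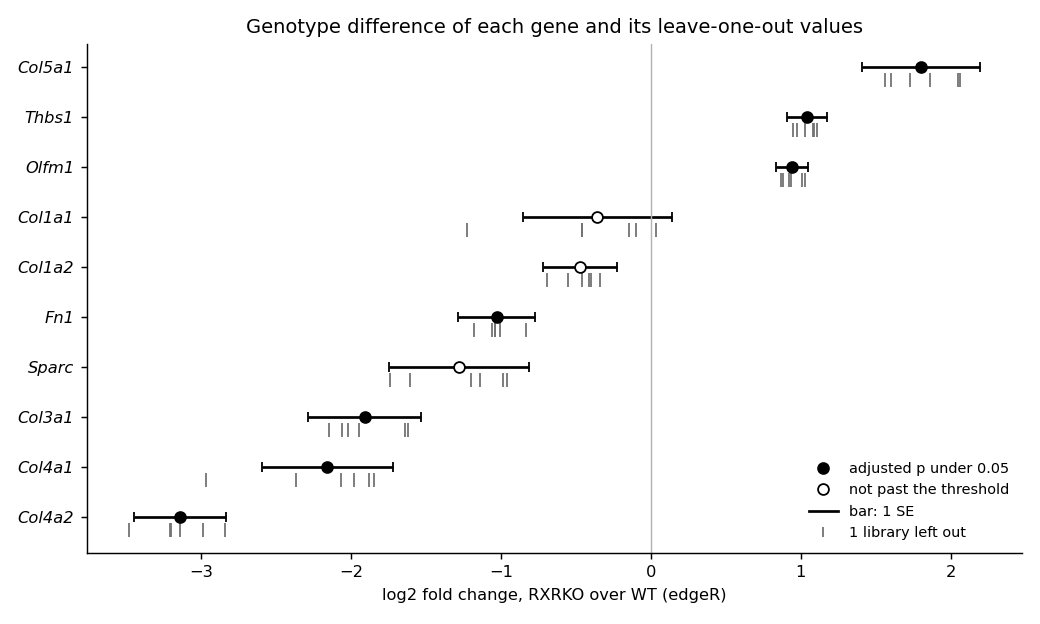
Log2 fold change of the knockout over WT for each gene (edgeR; circles, filled where the adjusted p is under 0.05; bars, 1 SE), with grey ticks for the fits that leave out 1 library. Ticks of Col1a1 run from -1.23 to 0.037 and cross 0, and those of the other 9 genes stay on one side.

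Per kilobase of exon, the order in WT was Olfm1 (15 ± 1.84 CPM per kilobase), Thbs1 (1.61 ± 0.206), Col4a2 (0.844 ± 0.132), Col1a1 (0.586 ± 0.147), Sparc (0.565 ± 0.312), Col4a1 (0.462 ± 0.144), Fn1 (0.298 ± 0.0729), Col1a2 (0.295 ± 0.0335), Col3a1 (0.251 ± 0.086) and Col5a1 (0.0804 ± 0.0275; SD, n = 3). Levels of Col1a1, Sparc and Col4a1 lay within 1 SD of each other, as did those of Fn1, Col1a2 and Col3a1. The order depends on the exon union used as length. Before division by it, Col1a1 and Col1a2 stood at 3.85 and 3.66 CPM in WT. In the knockout Olfm1 (28.8 ± 2.44) and Thbs1 (3.34 ± 0.315) were again highest. Col1a1 (0.478 ± 0.379), Col5a1 (0.293 ± 0.0901), Sparc (0.243 ± 0.134) and Col1a2 (0.212 ± 0.0563) followed with overlapping spreads. Col4a1 (0.107 ± 0.0836), Col4a2 (0.0987 ± 0.0398) and Col3a1 (0.068 ± 0.0222) were the lowest. Col4a2 thus moved from the most abundant collagen chain among the 6 in WT to one of the least abundant in the knockout.

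Col5a1 and Olfm1 lie beside a modified locus. In GENCODE M21, Col5a1 (ENSMUSG00000026837, chromosome 2, plus strand, 27886425 to 28039514) begins 123 kb after the end of Rxra, and Olfm1 (ENSMUSG00000026833, 28192992 to 28230736) begins 430 kb after it and 153 kb beyond Col5a1. All are on the plus strand. Fcnb and F730016J06Rik, which lie between Col5a1 and Olfm1, had log2 fold changes of -0.051 and -0.068 and did not pass the test (edgeR adjusted p = 0.84 and 0.868), nor did Wdr5 and Brd3 on the other side of Rxra (0.094 and 0.013). These 4 genes were chosen for their position after the values were seen. Of 29 tested genes within 1 Mb of Rxra, 7 (24.1%) passed, 6 higher and 1 lower, and of 165 within 5 Mb, 28 (17%) passed. Both counts include Col5a1 and Olfm1 themselves, which were the 2 genes called of 8 tested within 0.5 Mb. Over all tested genes, 19.4% passed, 9.77% higher and 9.61% lower. The labels do not give the origin of the DNA flanking the altered Rxra alleles. Whether position beside Rxra had a part in the rises of Col5a1 and Olfm1 was not tested.

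**Figure D3:**
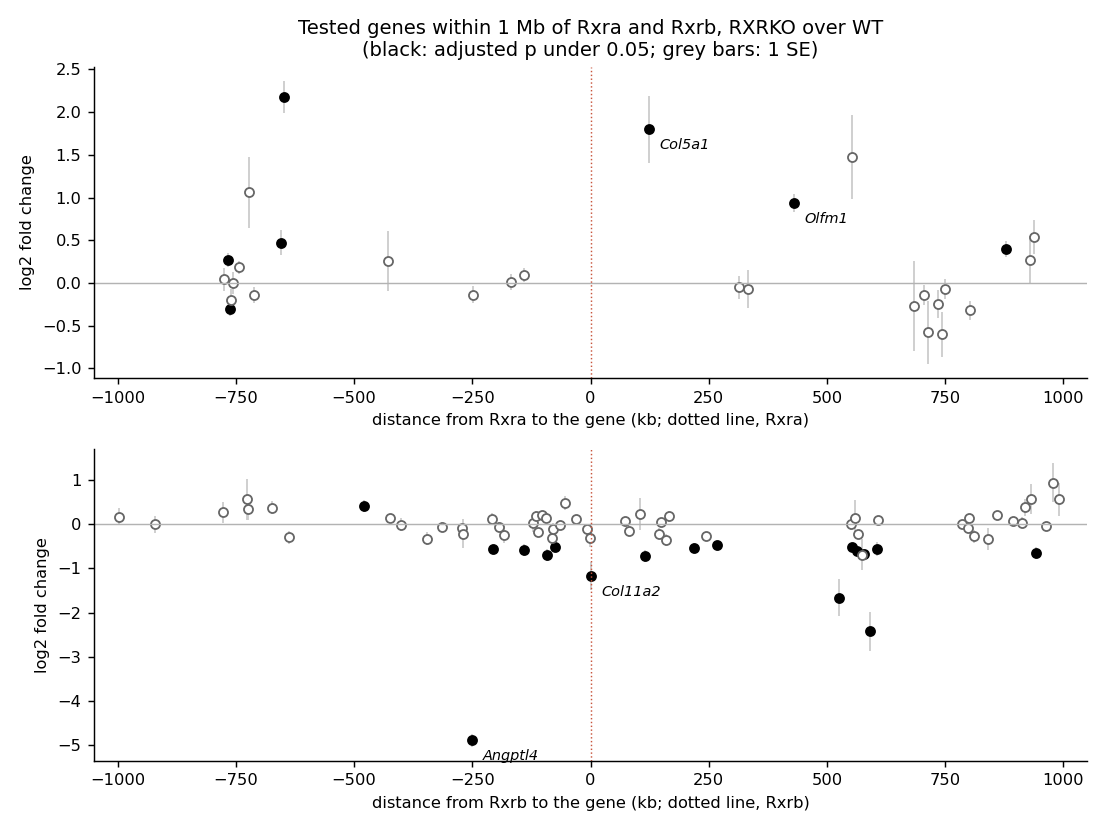
Log2 fold change (knockout over WT, bars 1 SE) of each tested gene within 1 Mb of Rxra (top) and Rxrb (bottom) against its distance in kb, with filled circles for adjusted p under 0.05. Col5a1 (1.80) and Olfm1 (0.94) lie to the right of Rxra with 2 genes that were not called between them, and Col11a2 (-1.18) lies 1.04 kb from Rxrb; Angptl4, a lipid-regulated gene, is labelled as the lowest point.

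The sequences before the start sites of these neighbours are shown with that of Col3a1, which moved the other way. Of the 10 genes, 7 matched entries of the RefSeq start site table (GRCm38.p6). Stretches annotated as untranslated region in GENCODE M21 were left out. Both strands of the 250 bases upstream were searched for the nuclear receptor half-site AGGTCA, the GC box GGGCGG, the CCAAT box, the TATA box TATAAA and the AP-1 site TGANTCA, and matches are in capitals. These motifs do not overlap in the windows shown.
Col5a1, chr2:27886175-27886424, plus strand: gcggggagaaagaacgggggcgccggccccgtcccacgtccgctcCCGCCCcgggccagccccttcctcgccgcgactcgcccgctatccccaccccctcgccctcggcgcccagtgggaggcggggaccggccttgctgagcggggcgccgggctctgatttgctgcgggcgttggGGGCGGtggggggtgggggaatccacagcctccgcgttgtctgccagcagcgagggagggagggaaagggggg
Olfm1, upstream start, chr2:28192843-28192991, plus strand: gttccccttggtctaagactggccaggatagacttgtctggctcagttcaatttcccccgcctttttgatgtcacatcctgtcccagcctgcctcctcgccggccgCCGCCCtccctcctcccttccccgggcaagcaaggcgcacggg
Olfm1, downstream start, chr2:28205439-28205658, plus strand: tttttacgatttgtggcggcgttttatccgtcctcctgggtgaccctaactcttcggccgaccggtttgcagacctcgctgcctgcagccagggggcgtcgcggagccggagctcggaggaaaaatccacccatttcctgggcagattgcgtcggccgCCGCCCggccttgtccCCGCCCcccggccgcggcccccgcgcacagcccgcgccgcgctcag
Col3a1, chr1:45311288-45311537, plus strand: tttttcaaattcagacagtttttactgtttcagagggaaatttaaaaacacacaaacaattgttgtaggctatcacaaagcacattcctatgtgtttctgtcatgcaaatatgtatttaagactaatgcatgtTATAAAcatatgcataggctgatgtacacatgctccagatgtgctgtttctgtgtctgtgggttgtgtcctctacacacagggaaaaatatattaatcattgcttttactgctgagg
In the full 250 bases, Col5a1 and each Olfm1 start held 2 GC boxes, a motif held by 32.7% of all start sites, and Col3a1 held none. One of those before the upstream Olfm1 start lies in the stretch left out. Among the windows searched but not shown, those of Col4a2, which fell, and Col1a2, which was not called, also held 2 GC boxes each. Those of Col4a1, which fell, and Sparc, which was not called, held none, so GC boxes in these windows did not separate rising from falling genes. The windows differ in kind. Bases annotated as untranslated region made up 250 of the 250 for Col4a1, 231 for Sparc, 205 for Col4a2 and 127 for Col1a2. They made up 101 and 30 at the Olfm1 starts and 0 for Col5a1 and Col3a1. Col3a1 held 1 TATAAA, as 12.4% of all start sites do. AGGTCA, found in 14% of all, was in none of the 7 genes' windows. Of these bases 76.4% were G or C in Col5a1, 69.2% at either Olfm1 start and 35.2% in Col3a1. A match or its absence in these windows says nothing on the binding of a factor.

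Other collagen genes were read from lists that leave out the 10 genes. For each list below, the share to compare with is the 19.4% of all tested genes that passed, 9.77% higher and 9.61% lower. Of 11 further fibrillar and basement membrane chains, 2 were tested. Col4a5, a chain of the type IV network in kidney and other specialised membranes, rose (WT libraries at 3.11, 3.65 and 2.42 CPM, knockout libraries at 11, 11.1 and 9.45 CPM; log2 fold change 1.83, SE 0.188, edgeR adjusted p = 2.7e-05). It thus went up where Col4a1 and Col4a2 went down. Col11a2, a cartilage fibril chain, fell (-1.18, SE 0.316, edgeR adjusted p = 0.0198), but it begins 1.04 kb after the deleted Rxrb on the same strand. Of 71 tested genes within 1 Mb of Rxrb, 17 (23.9%) passed, Col11a2 among them, 1 higher and 16 lower. The part of the position beside Rxrb was not tested. The Col11a2 call was lost without WT replicate 1 (edgeR adjusted p = 0.0865), WT replicate 3 (0.0799) or knockout replicate 1 (0.0713). The other 9 had at most 19 reads in any library. Among them Col5a2, the partner chain of Col5a1, had 11, 3 and 18 reads in WT and 5, 0 and 1 in the knockout; it was chosen after its values were seen. Of 27 other collagens, 8 were tested: 2 rose, 2 fell and 4 were not called (their median change was -0.20 on the log2 scale). Col18a1, the most abundant collagen gene of the lists and a basement membrane collagen with an anti-angiogenic fragment, rose from 276 ± 22.4 to 388 ± 24.7 CPM (0.49, edgeR adjusted p = 0.00168). The transmembrane collagen gene Col23a1 rose from 1.37 ± 0.11 to 4.92 ± 0.536 CPM (1.83). Col6a1 (-1.74) and Col6a2 (-1.57), which encode chains of the beaded type VI filaments, fell to 0.645 ± 0.208 and 0.639 ± 0.205 CPM from 2.17 ± 0.75 and 1.87 ± 0.136 CPM. Both reached the filter's level in all 3 WT libraries but in only 1 knockout library each. Col6a3, another type VI chain, was not called (-0.95, edgeR adjusted p = 0.273).

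Genes of collagen modification and crosslinking included 14 tested of 29 listed: 1 rose, 1 fell and 12 were not called (median change -0.048 on the log2 scale). P4ha2, a catalytic subunit of prolyl 4-hydroxylase, rose from 11.7 ± 1.24 to 19.7 ± 3.36 CPM (0.76, edgeR adjusted p = 0.00335). The crosslinking enzyme gene Lox fell from 2.04 ± 0.175 to 1.04 ± 0.0868 CPM (-0.96, edgeR adjusted p = 0.0394), but this call was lost in 9 of 14 alternatives, with every single library left out (adjusted p 0.0503 to 0.128) and with DESeq2 (0.0743) among them. P4hb, the most abundant member, which encodes protein disulfide isomerase, was at 666 ± 50.3 and 646 ± 45.3 CPM (edgeR adjusted p = 0.772). Serpinh1, the collagen chaperone that collagen-secreting cells make in quantity, had 5, 4 and 10 reads in WT and 2, 4 and 4 in the knockout, too few for a test; it was chosen after its values were seen.

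Partners of type IV collagen in basement membranes rose or did not pass. Of 16 listed, 6 were tested: 2 rose and 4 were not called (median change 0.48 on the log2 scale). Lamc1, the common laminin gamma chain, rose from 49 ± 1.52 to 92.7 ± 11.7 CPM (0.92, SE 0.103, edgeR adjusted p = 5.05e-05), and the proteoglycan agrin, Agrn, rose from 37.7 ± 3.17 to 56.6 ± 2.86 CPM (0.58). Hspg2 (perlecan) and Nid1 had between 0 and 10 reads in any library and were not tested. These examples were picked with their values known.

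Of 48 other secreted matrix glycoproteins and proteoglycans, 18 were tested: 2 rose, 2 fell and 14 were not called (median change 0.023 on the log2 scale). Ltbp3, which holds latent TGF-beta in the matrix, rose from 50.1 ± 4.25 to 108 ± 9.9 CPM (1.11, SE 0.0986, edgeR adjusted p = 7.83e-06), and Ecm1 rose from 134 ± 14.3 to 189 ± 20 CPM (0.50). The filament-forming adaptor gene Matn2 fell from 19.1 ± 2.6 to 6.37 ± 1.14 CPM (-1.58, SE 0.162, edgeR adjusted p = 2.7e-05). Olfml3, an olfactomedin-like relative of Olfm1, fell from 11.9 ± 1.88 to 6 ± 1.18 CPM (edgeR adjusted p = 0.00207) while Olfm1 rose. Spp1, which encodes osteopontin and was the most abundant of the list, was at 1980 ± 313 and 2160 ± 169 CPM (edgeR adjusted p = 0.467).

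Receptors for these proteins moved both ways. Of 30 listed, 21 were tested: 7 rose, 5 fell and 9 were not called (median change 0.037 on the log2 scale). Over all tested genes, 19.4% passed. Stab1, which encodes a scavenger receptor that takes up SPARC, rose (1.26, SE 0.101), though its end overlaps Nt5dc2 on the opposite strand. Higher too were Itga6, a laminin receptor subunit (123 ± 9.75 to 225 ± 13.2 CPM, 0.86), and Itga8, a fibronectin receptor subunit (1.73 ± 0.602 to 5.61 ± 0.954 CPM, 1.65). Itgav, which pairs into receptors for fibronectin and other RGD proteins, fell (-1.14, SE 0.0821). Cd36, a thrombospondin receptor and the list's most read gene, fell from 3880 ± 299 to 2260 ± 208 CPM (-0.78, SE 0.0914, edgeR adjusted p = 8.3e-05), opposite to its ligand Thbs1. Mrc1, whose product binds collagen through its fibronectin-like domain, fell from 672 ± 20.6 to 488 ± 25.7 CPM (-0.46).

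Whether the collagens could come from remnants of stromal cells was addressed with marker lists. In bulk RNA, fewer cells of a type and less RNA per cell cannot be told apart. The first 5 stromal markers listed, Pdgfra, Pdgfrb, Thy1, Dcn (decorin) and Lum (lumican), had 9, 8 and 13 reads together in WT and 13, 8 and 8 in the knockout, or 0.849 to 1.04 CPM against 0.318 to 0.756 CPM (two-sided exact permutation p = 0.1, the smallest possible; 0.16 adjusted over 8 marker sums). Dcn had 4, 0 and 2 reads in WT and 0 in each knockout library, Lum had 0, 0 and 1 in WT and 0 in the knockout, and Pdgfra had 0, 3 and 2 against 0, 0 and 2. Pdgfrb had 4, 4 and 8 reads against 11, 7 and 3, and Thy1 had 0 to 3 in any library. These defining markers were thus at or near 0 in both genotypes. Their sum lay below Col1a1, Col1a2, Col3a1, Col4a1 and Col4a2 in every WT library and in knockout replicates 2 and 3. In knockout replicate 1 the sum (0.756 CPM) lay above Col4a1 (0.407), Col4a2 (0.64) and Col3a1 (0.698) and below both type I chains. Col5a1 did not exceed the sum in any WT library (0.415, 0.783 and 0.849 CPM against 0.934, 1.04 and 0.849). It lay above the sum in every knockout library. The levels do not tell how much collagen RNA the few marker reads would bring with them.

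Over the whole stromal list of 30 genes, the summed level ran from 40.3 to 45.1 CPM in WT and from 60 to 61.5 CPM in the knockout. That sum was carried to 84.3% by Kitl, Runx2 and Pdpn. Of the list's 8 tested genes, Kitl, the stem cell factor gene, rose from 20.6 ± 2.08 to 44.3 ± 1.34 CPM (1.12), the bone regulator gene Runx2 fell from 9.83 ± 1 to 4.69 ± 0.854 CPM (-1.07), and 6 did not pass. The 6 went in both directions, with log2 fold changes of 0.39 for Pdpn, 0.26 for Acta2, 0.25 for Ncam1, -0.14 for Tagln, -0.95 for Col6a3 and -1.18 for Bgn. Col6a3 was called without knockout replicate 3 (-1.75, edgeR adjusted p = 0.0498) and Bgn without WT replicate 2 (-1.48, edgeR adjusted p = 0.0272). The other 27 genes of the list summed to 11.1, 6.39 and 10.5 CPM in WT, against 8.49, 6.43 and 9.18 CPM in the knockout, an overlap that is given without a test because the split was made after the values were seen. In this sum WT replicate 2 was the lowest WT library, as it was for 7 of the 10 matrix genes, Thbs1 and Olfm1 among them. Knockout replicate 3 was the highest knockout library, as it was for 7 of the 10. The same shares over all tested genes were not computed, so these counts are a description. With WT replicate 2 or knockout replicate 3 left out, Col4a1, Col4a2, Col3a1, Fn1 and Col5a1 kept their calls. Fn1 lost its call when some other libraries were left out. Leaving out 1 library cannot take stromal RNA out of the others. The part of stromal RNA in the differences of Col4a1, Col4a2, Col3a1 and Fn1 was not tested.

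**Figure D4:**
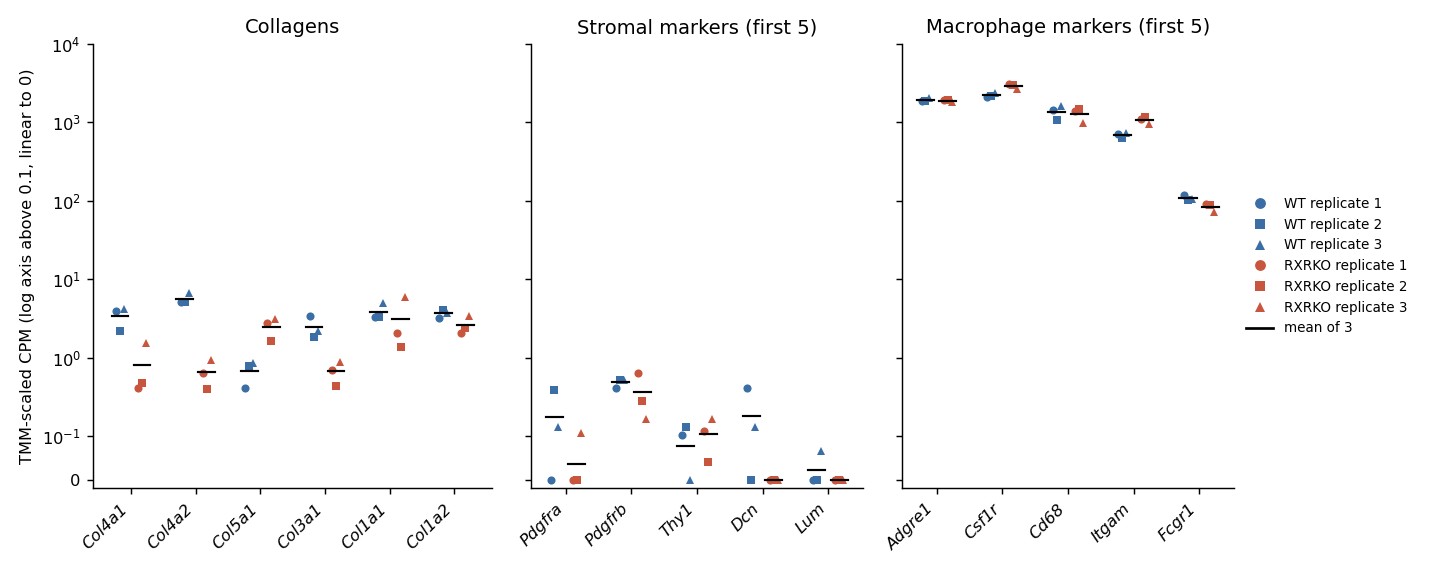
TMM-scaled CPM of the 6 collagen genes, of the first 5 stromal markers and of the first 5 macrophage markers in each library, on 1 axis that is logarithmic above 0.1 and linear down to 0; black bars are means of 3. Stromal markers stay at or below 1 CPM and macrophage markers lie far above both other panels.

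Markers of endothelial cells, which make type IV collagen, were read in the same way. Of 15 listed, 5 were tested: 2 rose, 1 fell and 2 were not called. Vwf (von Willebrand factor) rose from 43 ± 2.49 to 123 ± 12.1 CPM (1.51) and Kdr, a VEGF receptor gene, from 1.19 ± 0.168 to 5.69 ± 0.227 CPM (2.22). The endocytic receptor gene Stab2 fell from 3.32 ± 0.441 to 1.03 ± 0.503 CPM (-1.63). The first 5 endothelial markers listed (Cdh5, Kdr, Tek, Tie1 and Emcn) summed to 1.76 to 2.59 CPM in WT and 6.22 to 6.57 CPM in the knockout. These ranges did not overlap (two-sided exact permutation p = 0.1, adjusted 0.16). Besides Kdr, Cdh5 had 5, 2 and 2 reads in WT and 2, 6 and 2 in the knockout. Tek had 2 and 3 reads in total, Tie1 13 and 27, and Emcn 3 and 0, with knockout libraries holding 1.87 times the counts on average. Further down the list, Cldn5 and Sox17 had none. The list's sum was 49.6 to 53.1 CPM in WT, against 125 to 147 CPM in the knockout (exact p = 0.1, adjusted 0.16), and Vwf, Kdr and Stab2 carried 96.9% of it. The other 12 genes summed to 3.42 ± 0.968 and 3.23 ± 0.638 CPM, given without a test because this split too came after the values. The part of endothelial RNA in the differences of Col4a1 and Col4a2 was not tested.

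Megakaryocytes and platelets are rich in Thbs1 and Sparc. Their 10 listed markers summed to 88.5 to 117 CPM in the WT libraries and 87 to 104 CPM in the knockout (two-sided exact permutation p = 0.4, adjusted 0.457). Of 5 tested, Treml1 rose from 2.76 ± 0.489 to 12.1 ± 0.357 CPM (2.14) and 4 were not called, among them the most abundant, Pf4, at 86.1 ± 14.9 and 70.7 ± 10 CPM. Pf4 was called lower without WT replicate 3 (-0.40, edgeR adjusted p = 0.0482) or without knockout replicate 3 (-0.40, edgeR adjusted p = 0.0437). Itga2b had 227 and 315 reads in total, Gp1ba 41 and 120, Gp1bb 14 and 23, and Gp9 9 and 20 in WT and the knockout. Their part in the rise of Thbs1 was not tested.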

How the data were processed

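Polyadenylated RNA (100 ng of total RNA per library, NEBNext Ultra II kit) was read single-end with a 75-cycle kit, per the labels' protocols. TopHat2 2.0.7, DESeq and the build mm10 (GRCm38) are listed, without their roles, per the submitters' processing notes. How reads were assigned to genes (program, annotation, strand) is not given in the sources used here. The authors deposited raw counts for 45193 Ensembl genes, and a second table of log2 values. In the deposited log2 table every library's values equal log2 counts shifted by 1 fixed factor per library (0.617 to 2.04 times the count), so it was used for an alternative alone. Symbols were matched by identifier for 45106 genes.

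Counts were tested in edgeR 4.0.16 (R 4.3.3) with its quasi-likelihood F test (robust settings, TMM factors), genotype being the only term. It ran on 12011 genes kept by filterByExpr (minimum count 10, minimum total 15), with Benjamini-Hochberg adjustment over all of them. The SE printed is computed from the fold change and F, and so restates the test. CPM are given as mean ± SD of 3 libraries. Lengths are the union of exons in GENCODE M21.

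The 10 genes and the lists were chosen with earlier results of these data known. Named were the 10 genes and, from each list, up to 3 that rose and 3 that fell by smallest adjusted p, the most read member, and the first 5 of each marker list; some marker genes are not reported here. Some genes stand in 2 lists. Rxra, Rxrb and Lyz2 were taken as checks of the labels; Lyz2 went from 15300 ± 594 to 28.4 ± 6.12 CPM. A list of nuclear receptor and TGF-beta genes held 10 tested genes, of which 6 were not called; Smad3 (log2 fold change 1.49) and Abca1 (0.95) rose, and Angptl4 (-4.89) and Rxrb (-2.85) fell. Of 10 macrophage markers 3 rose (Cd14, Itgam, Csf1r), 3 fell (Lyz2 and Fcgr1 among them) and 4 did not pass; their sum was 22500 to 23000 CPM in WT and 7930 to 9080 CPM in the knockout, set by Lyz2. Alternatives were other scaling (RLE, upper quartile), testing without the filter, CPM of at least 1 in 3 libraries, DESeq2 1.42.0, limma-voom and limma on the authors' log2 values (limma 3.58.1; linear value + 1), the replicate number as a block, and each library left out.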

Additional observations from a re-analysis of the deposited data

How the results depend on the processing

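Col4a1, Col4a2, Col3a1, Col5a1, Thbs1 and Olfm1 kept direction and call in all 14 alternatives run, with log2 fold changes of -2.97 to -1.85, -3.48 to -2.84, -2.15 to -1.62, 1.56 to 2.06, 0.95 to 1.11 and 0.87 to 1.03. Fn1 lost its call in 4 of 14 (adjusted p up to 0.0737). Col1a2 was called in none (edgeR, DESeq2 and limma adjusted p from 0.0735 to 0.481). Col1a1 reversed to 0.0367 without knockout replicate 2 and was called at -1.23 without knockout replicate 3. Sparc was called with no filter on low counts (adjusted p = 0.0107). With each library left out, 3 of the 10 genes were higher and 3 to 6 lower; 14 to 15 of the pathway genes were higher and 9 to 12 lower, against 15 and 11 of 69. Outside the 10 genes, 36 of the 42 called list genes kept their call in every alternative that gave a value; Lox, Col11a2, Itgb1 (7 of 14), Itgb3 (1 of 14) and Fcgr1 (3 of 14) were among the 6 that lost it. With each library left out, 4 uncalled genes changed sign: P4hb ran from -0.0984 to 0.0181, Fcnb from -0.133 to 0.0463, F730016J06Rik from -0.181 to 0.00286 and Brd3 from -0.0468 to 0.0728. For marker genes and neighbours of Rxra these alternatives were chosen after seeing the data.

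Replicate numbers showed no pairing of the libraries: deviations of same-numbered libraries correlated at 0.0528, -0.275 and -0.259. Differently numbered ones correlated at -0.108 to 0.307. Deviations from a mean of 3 libraries constrain each other, so this check cannot exclude pairing. With the replicate number as a block, 709 genes were higher and 666 lower, against 1173 and 1154 without it, and Fn1 missed the threshold (edgeR adjusted p = 0.0511). Leaving out each library gave 667 to 1278 higher and 619 to 1329 lower genes. Without WT replicate 1 there were 667 and 619, and without knockout replicate 1 there were 697 and 686. The cause was not tested. The marker sums kept their ratios of the knockout to WT within 1.39 to 1.47 (stromal), 2.47 to 2.68 (endothelial) and 0.85 to 0.975 (megakaryocyte). Counts of 4 to 110 reads per library limit the 6 collagens, where 1 library can move a value.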
